A study of Mus musculus with 29 samples.

Results

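The interferon-inducible members of the PARP family and their partner Dtx3l were followed through 2 successive cytokine stimulations of NMM cells, a line from mouse melanoma that carries mutant NRAS. The genes were chosen by name, as Parp9, Parp10, Parp11, Parp12, Parp14 and Dtx3l, and all 6 were found among the 28229 genes of the table and passed the filter on low counts. The first stimulation lasted 2, 6, 12 or 24 h. It was medium alone, IFNγ (interferon gamma) at 100 ng/ml, or TGFβ, which stands for transforming growth factor beta, at 10 ng/ml. After PBS washes a second stimulation of 24 h followed, with medium, IFNγ or TGFβ. After medium the second stimulus was any of the 3, and after either cytokine it was medium or the other cytokine, which makes 7 sequences. Each had 4 libraries, 1 for every length of the first stimulation, and 1 further library got medium for 24 h and then both cytokines together, for 29 libraries in all. Below, "medium" alone stands for medium then medium, and 2, 6, 12 or 24 h always gives the length of the first stimulation. All groups share the line, its NRAS mutation and the serum-containing culture medium, so every result is from 1 line, and the labels do not say whether libraries came from separate cultures. What the p-values weigh is thus the variation among these libraries, and that may be technical in part.

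PARP enzymes take ADP-ribose from NAD and attach it to proteins or nucleic acids. The interferon-inducible members mostly transfer single ADP-ribose units, and several carry macrodomains, which bind ADP-ribose. The response of such genes to IFNγ classically starts with the kinases Jak1 and Jak2 and runs through GAS elements in DNA, while type I interferons act through ISRE elements. Parp9 has macrodomains and pairs with Dtx3l, a ubiquitin ligase of the Deltex family. Parp14 is a large macrodomain protein known as a cofactor of STAT6-driven transcription. Parp10 carries RNA recognition and ubiquitin interaction motifs, Parp12 has CCCH zinc fingers and is known for antiviral activity, and Parp11 is a small enzyme with a WWE domain that modifies regulators of the type I interferon receptor.

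Parp14, Dtx3l and Parp9 lie together on mouse chromosome 16 of build GRCm38. Parp14 (ENSMUSG00000034422, minus strand) spans 35832874 to 35871544, Dtx3l (ENSMUSG00000049502, minus strand) 35926511 to 35939151, and Parp9 (ENSMUSG00000022906, plus strand) 35938470 to 35972605. Dtx3l and Parp9 are transcribed away from each other from start sites 681 bp apart and overlap by 682 bp. Of that overlap 458 bp are exonic, which is 9.4% of the exon length of Parp9 and 8% of that of Dtx3l. Parp14 ends 54.97 kb from Dtx3l. Parp10 (ENSMUSG00000063268) lies on chromosome 15 at 76231174 to 76243441. Both Parp12 (ENSMUSG00000038507, 39086410 to 39118349) and Parp11 (ENSMUSG00000037997, 127446840 to 127494261) are on chromosome 6, far apart. All 6 are annotated as protein-coding. Small exonic overlaps on the same strand exist between Parp10 and Plec (205 bp) and between Parp14 and the unclassified transcript Gm49730 (110 bp). Whether counting used the strand is not given in the sources used here. Reads from the overlap of Dtx3l and Parp9 may therefore count for either gene.

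Promoter sequence, 250 bases upstream of the annotated start and credited to RefSeq on build GRCm38.p6, was at hand for 3 of the 6 genes (Parp11 with 2 starts, Parp12 and Dtx3l). The windows of Dtx3l, Parp12 and the second Parp11 start overlap annotated exons by 179, 127 and 7 bases. That of Dtx3l, 35939028 to 35939277, lies partly within the Dtx3l span given above. A missing match there therefore says little about the sequence upstream of these genes. The window of the first Parp11 start, chr6:127446590-127446839 on the plus strand, is shown since it was the 1 window of the 4 with a match to an interferon element. Its capitals mark the ISRE core and the GAS match, which overlap by 3 bases.
Parp11 upstream window: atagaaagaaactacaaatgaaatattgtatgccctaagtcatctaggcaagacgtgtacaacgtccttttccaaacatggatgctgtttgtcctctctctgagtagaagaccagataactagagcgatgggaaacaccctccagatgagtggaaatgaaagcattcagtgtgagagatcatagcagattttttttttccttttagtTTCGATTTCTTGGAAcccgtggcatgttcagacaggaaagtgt
The ISRE core searched for was GAAANNGAA on both strands. It matched on the minus strand as TTCGATTTC, read on the plus strand, 43 to 35 bases before the start. The GAS motif TTCNNNGAA, the same on both strands, matched as TTCTTGGAA at 37 to 29 bases before it. Among 32851 promoter windows of this length 7.13% held the ISRE core and 7.02% the GAS motif. The SMAD binding element GTCTAGAC, held by 0.167% of them, was found in none of the 4 windows.

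Library totals ran from 17179530 to 23668015 counts, and mitochondrial transcripts made up 0.596% to 1.31% of them. The lowest count of any of the 6 genes in any library was 104. Levels below are in CPM, the count relative to the TMM-scaled library total. Of 10 melanoma markers, 6 were in the table and 3 had a median above 1 CPM, namely Axl (1201), Gpnmb (83.2) and Mitf (12.8). Sox10, a defining factor of the melanocyte lineage, had a median of 0 and Pmel one of 0.19 CPM. Tyr, Tyrp1, Dct and Mlana were not among the genes of the table, so no level can be given. Markers of other cell types were checked as well. Of 8 leukocyte markers 5 were in the table and 2 had a median above 1 CPM (Cd14 and Cd68). The pan-leukocyte antigen Ptprc reached at most 0.17 CPM. Of 5 fibroblast markers 4 had a median above 1 CPM. Their sums were 577 to 1943 CPM in medium, 195 to 234 in medium then IFNγ, 476 to 606 in medium then TGFβ and 356 to 682 in TGFβ then medium. The highest of these, 1943, was the 6 h medium library, which stands apart from the other medium libraries. The endothelial list had Cdh5 alone above 1 CPM, and its sum was 6.99 to 12.3 in medium, 5.56 to 9.91 in medium then IFNγ and 20.4 to 22.5 in TGFβ then medium. Whether these marker levels have a part in the results below was not tested.

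All 6 genes put the 7 sequences in 1 and the same order of mean level. From high to low it was medium then IFNγ, TGFβ then IFNγ, medium, IFNγ then medium, IFNγ then TGFβ, medium then TGFβ, and TGFβ then medium. The highest library of every gene was medium then IFNγ at 24 h, and the lowest was TGFβ then medium at 24 h. Between these libraries Parp14 differed by 100.7-fold, Parp12 by 37.3-fold, Parp9 by 28.9-fold, Parp10 by 27.6-fold, Dtx3l by 23.4-fold and Parp11 by 10.6-fold. Neighbours in the order mostly overlapped. Medium then IFNγ and TGFβ then IFNγ were apart for 1 gene (Parp10). TGFβ then IFNγ and medium were apart for 3 (Parp9, Parp14 and Dtx3l), and the other 4 pairs of neighbours overlapped for all 6. The share of all tested genes that were apart is not given for these pairs, so these counts only describe the 6 genes. In bulk RNA, fewer cells that express a gene and less RNA per cell cannot be told apart.

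**Figure D1:**
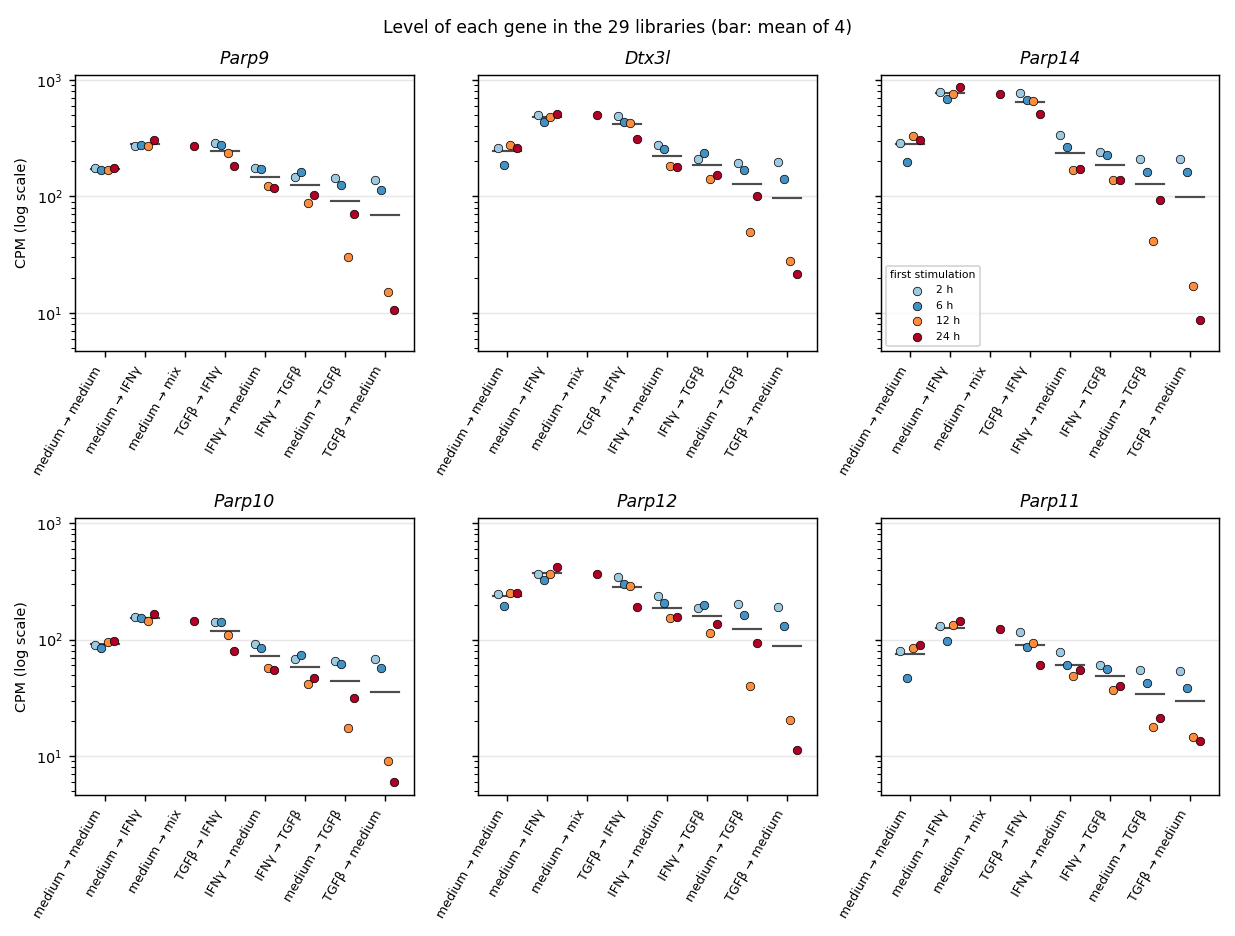
CPM on a log axis for each gene in the 29 libraries, grouped by sequence. Points are libraries coloured by the length of the first stimulation, and bars are means of 4. In TGFβ then medium the 12 and 24 h points of every gene lie far below the 2 and 6 h points, with Parp14 at 17.0 and 8.61 CPM against 211 and 161.

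Per kilobase of exon, Parp12 was the most abundant in 25 of the 29 libraries, Dtx3l came second in 24 and Parp11 last in 27. Exon length here joins all annotated transcripts, 10 for Parp11 over 7026 bp and 2 for Parp12 over 3995 bp. Which transcripts were expressed was not tested, so the order between genes is approximate. In medium the means were 59.2 ± 6.81 CPM per kb for Parp12 (SD, n = 4), 43.0 ± 6.97 for Dtx3l, 35.3 ± 0.870 for Parp9, 30.0 ± 6.07 for Parp14, 21.5 ± 1.36 for Parp10 and 10.7 ± 2.72 for Parp11. Parp14 changed its place most. With IFNγ as second stimulus it reached 83.4 ± 7.92 CPM per kb, close to Dtx3l at 84.2 ± 5.86, while in TGFβ then medium at 24 h it was the lowest of the 6 at 0.926 CPM per kb.

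IFNγ given for the last 24 h came with higher levels of all 6 genes than medium. Parp14 stood at 288, 198, 327 and 303 CPM in medium (2, 6, 12 and 24 h) and at 790.1, 689.9, 757 and 867 CPM in medium then IFNγ. Every IFNγ library was thus more than 2-fold above every medium library, and Parp14 rose by 1.45 in log2 units (edgeR, adjusted p = 0.0238, SE 0.508). Dtx3l, the ligase, had 259, 187, 276 and 262 CPM in medium and 504, 434, 482 and 507 with IFNγ. The groups did not overlap, and Dtx3l rose by 0.95 (adjusted p = 0.0475, SE 0.382). Its partner Parp9 had 176, 167, 170.0 and 176 CPM in medium and 269.9, 274, 273 and 307 with IFNγ. The medium libraries of Parp9 spread by a CV of 2.46%, and its log2 difference was 0.72 (adjusted p = 0.175), which did not pass.

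Away from the chromosome 16 cluster the log2 differences were 0.65 to 0.75, near that of Parp9 and below those of Parp14 and Dtx3l. Parp11 had 79.8, 47.1, 84.8 and 89.1 CPM in medium and 132, 97.2, 134 and 144 with IFNγ, and rose by 0.75 (adjusted p = 0.0392, SE 0.288). Parp10 had 90.0, 84.8, 95.9 and 97.5 CPM in medium and 156, 153, 143 and 165 with IFNγ, a log2 difference of 0.73 (adjusted p = 0.12) that did not pass. Parp12 went from 247, 196, 253 and 250.3 CPM to 364, 328, 367 and 422, a difference of 0.65 (adjusted p = 0.258), also not called. So the groups of all 6 genes were apart, where 18.1% of all tested genes were apart in this direction, and 3 of 6 were called as higher. Of all tested genes 43.8% were called in this comparison, 22.7% as higher and 21.2% as lower. The median log2 difference of the 6 was 0.74, and that of all tested genes -0.0096.

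The number of calls differed with the libraries in the fit. The fit pools the spread over all sequences, and the CV of these genes was 5.73% to 16.0% in medium then IFNγ but 64.7% to 103% in TGFβ then medium. Fitted on the 8 libraries compared alone, all 6 genes rose (log2 0.64 to 1.48, edgeR adjusted p = 6.34e-05 to 0.000513), as did 18.7% of the 13230 genes tested there. In the fit over all sequences 0 of 6 were called when any 1 of 4 libraries was left out, namely medium at 2 h or 6 h or medium then IFNγ at 12 h or 24 h. Without the 6 h medium library the 6 log2 differences were 0.48 to 1.22 (adjusted p = 0.0776 to 0.467) and 20.4% of genes were called as higher.

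After a first stimulation with TGFβ, washed away and followed by 24 h of medium, all 6 genes were lower than in medium. The 12 and 24 h libraries carried most of the difference. Parp14 had 211, 161, 17.0 and 8.61 CPM in TGFβ then medium after 2, 6, 12 and 24 h, against 288, 198, 327 and 303 in medium. At 24 h it was 35.1-fold below the medium library. Parp12 had 190.2, 131, 20.2 and 11.3 CPM, 22.1-fold below medium at 24 h. For both genes the libraries of 12 and 24 h hold most of the drop. Those of 2 and 6 h were also below medium of the same length, by less. For Parp12 they lay below every medium library, the lowest of which had 196 CPM.

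Parp9 followed the same course with 138, 114, 15.2 and 10.6 CPM, and was 16.5-fold below medium at 24 h. Dtx3l, which shares its start region, kept 196, 142, 27.7 and 21.7 CPM and was 12.1-fold lower. Parp10 had 68.4, 57.3, 9.00 and 5.97 CPM, 16.3-fold lower at 24 h. Parp11 held the highest remaining share, with 53.3, 38.3, 14.5 and 13.5 CPM, 6.61-fold lower at 24 h. Across the 6 genes the levels were 1.27 to 1.5-fold below medium after 2 h, 1.23 to 1.49-fold after 6 h, 5.85 to 19.3-fold after 12 h and 6.61 to 35.1-fold after 24 h. At 12 h all 6 were over 2-fold lower, where 7.14% of all tested genes were, and at 24 h again all 6, where 7.6% were. These are differences between 1 library and 1 library, with no replicate at a given length. Levels were also lowest at 12 and 24 h in medium then TGFβ and in IFNγ then medium, as given below. Each fold is against medium of the same length, where Parp14 had 327 and 303 CPM at 12 and 24 h. The length of the TGFβ stimulation still cannot be told apart from time in culture in cytokine-treated cells, or from other differences between these libraries.

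**Figure D2:**
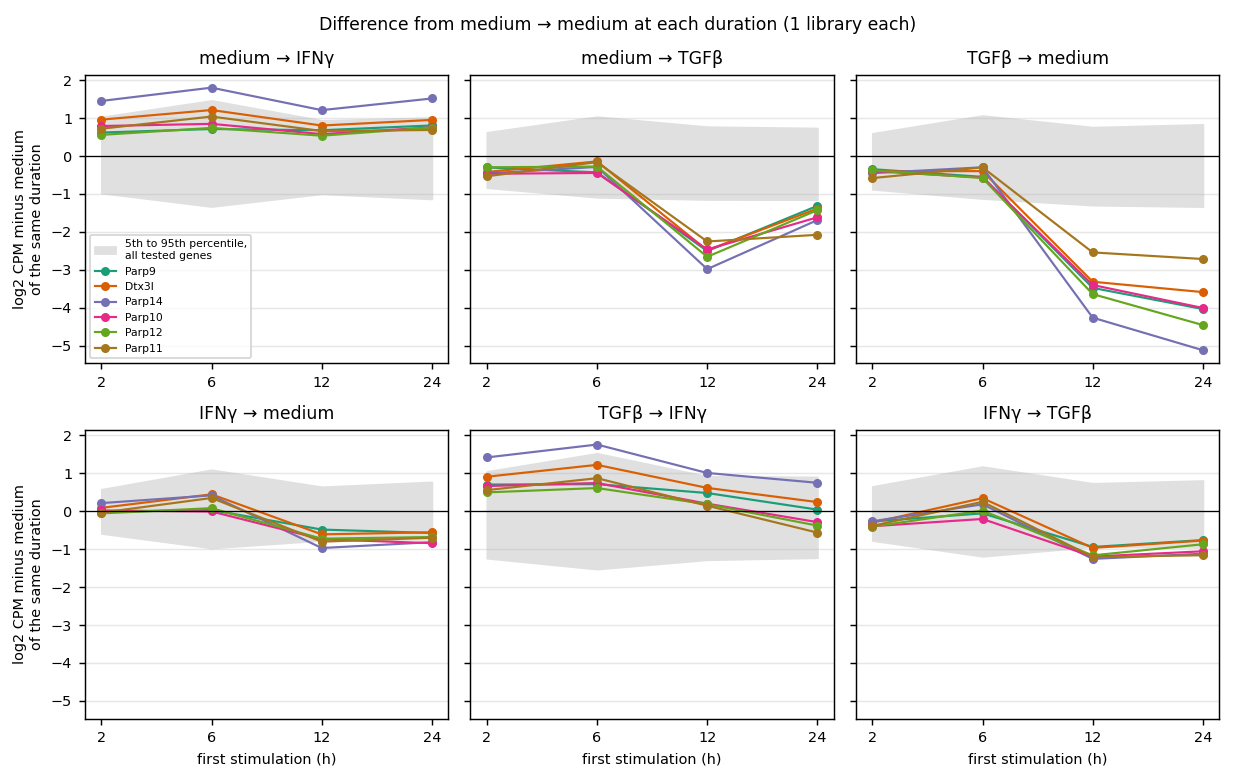
Log2 CPM of each gene minus that of the medium library of the same duration, by length of the first stimulation, for 6 sequences. Lines are genes, 1 library per point, and grey marks the 5th to 95th percentile of all tested genes. In TGFβ then medium the 6 lines leave the grey band at 12 and 24 h, reaching -5.12 for Parp14.

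Taking the 4 lengths together, all 6 genes fell in TGFβ then medium against medium, by 1.47 (Parp11) to 1.93 (Parp14) on the log2 scale, with edgeR adjusted p = 0.000894 to 0.00913. Of all tested genes 29% were called, with 14.5% lower. The median log2 change was -1.67 for the 6 and -0.00020 for all tested genes. Groups of Parp9, Parp10 and Parp12 did not overlap, as held for 9.65% of genes in this direction, and those of Parp14, Dtx3l and Parp11 overlapped through the low 6 h medium library. Without that library all 6 fell, by 1.68 to 2.20 (adjusted p = 0.000249 to 0.00637), as did 13.2% of genes. Fitted on the 8 libraries compared alone, 0 of 6 were called (log2 -2.47 to -1.52, adjusted p = 0.089 to 0.171) and 5.47% of genes were. Without the 12 h libraries, or without the 24 h libraries, of all sequences 2 of 6 were called. The share of all genes called in those fits is not given, and whether the change is particular to the 6 was not tested.

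The trend with length was tested in a model with a slope on log2 duration for each sequence, over 13973 genes. A slope within 1 sequence does not separate the length of the stimulus from time in culture. In TGFβ then medium all 6 slopes were below 0 and passed, from -0.61 for Parp11 through -0.99 for Dtx3l, -1.07 for Parp10, -1.16 for Parp9 and -1.24 for Parp12 to -1.43 for Parp14, in log2 units per doubling of duration (edgeR adjusted p = 0.00461 to 0.00924). Among all genes 1.44% were called there, 1.31% with a falling and 0.129% with a rising slope. In medium the slopes were -0.0017 to 0.074 and none passed (edgeR, adjusted p = 1, 0 of 6 at an unadjusted p under 0.05). The difference of the TGFβ then medium slope from the medium slope was -1.48 to -0.68 and did not pass in edgeR (adjusted p = 0.0637 to 0.0723, 6 of 6 at an unadjusted p under 0.05, 0.00716% of all genes called), while DESeq2 called 6. Without the 24 h library of TGFβ then medium 0 slopes were called. The difference of slopes was called for 5 or 6 genes without any 1 of 4 libraries, namely medium at 2 h, TGFβ then medium at 2 h or 6 h, and medium then TGFβ at 12 h.

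TGFβ as the second stimulus, present for the last 24 h, also came with lower levels, and again the libraries differed by length of the first phase although that phase was medium. Parp10 had 65.1, 62.3, 17.3 and 31.8 CPM in medium then TGFβ and fell by 1.25 in log2 units (adjusted p = 0.0211, SE 0.385). Parp11 had 55.1, 42.2, 17.7 and 21.1 CPM and fell by 1.27 (adjusted p = 0.00368, SE 0.302). Dtx3l had 193, 169.8, 49.3 and 100.3 CPM and fell by 1.12 (adjusted p = 0.0407, SE 0.39). In each of these the 12 h library was the lowest, below the 24 h library.

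The other 3 genes had the same shape without passing. Parp14 had 210.0, 162, 41.3 and 93.9 CPM (log2 -1.39, adjusted p = 0.0546), Parp9 143, 124, 29.9 and 70.6 (-1.10, adjusted p = 0.0664) and Parp12 201, 162, 40.1 and 93.0 (-1.14, adjusted p = 0.0753). The 6 genes were 4.79 to 7.91-fold below medium at 12 h and 2.49 to 4.23-fold at 24 h, but 1.10 to 1.45-fold at 2 and 6 h. All 6 were over 2-fold lower at 12 h, against 5.89% of genes, and at 24 h, against 6.33%. Called as lower were 3 of 6, where 23.3% of all tested genes were called and 11.6% as lower, with a median of -1.20 for the 6 and -0.0014 for all. Groups of 2 of the 6, Parp9 and Parp10, did not overlap, as for 8.42% of genes. Leaving out the 12 h or the 24 h library of either group left 1 of 6 called, and without the 6 h medium library 4 fell (10.6% of genes). In a fit on those 8 libraries alone 0 were called (adjusted p = 0.0838 to 0.133, 4.04% of genes called). The slopes here, -0.45 to -0.36 per doubling, were not called in edgeR (adjusted p = 0.368 to 0.459, 6 of 6 at an unadjusted p under 0.05, and 0% of all genes called).

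After IFNγ had been washed away and replaced by medium for 24 h, the 6 genes were near the level of medium or below it. No library was taken at the end of the first stimulation. In IFNγ then medium Parp14 had 335, 264, 167 and 172 CPM and Dtx3l 275, 255, 181 and 178. Parp9 had 174, 171, 122 and 118 CPM. For these genes the 12 and 24 h libraries lie below every medium library, and the 2 and 6 h libraries do not. Parp10 (91.3, 84.5, 57.5 and 54.3 CPM), Parp12 (237, 207, 153 and 156) and Parp11 (77.8, 60.1, 48.6 and 54.9) also had their lowest values at 12 and 24 h, though for Parp11 these stayed above the 6 h medium library. At those lengths the 6 genes were 1.40 to 1.96-fold below medium. Over the 4 lengths none passed (log2 -0.46 to -0.24, edgeR adjusted p = 0.564 to 0.807, 0 of 6 at an unadjusted p under 0.05, and 0 with DESeq2), in a comparison where 0.79% of all genes were called and 0.408% as lower. The widest of the 6 intervals, that of Parp14, ran from -1.47 to 0.64.

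Against medium then IFNγ, where IFNγ was still present, 4 of the 6 were called as lower in IFNγ then medium. Parp14 was lower by 1.86, Dtx3l by 1.19, Parp10 by 1.18 and Parp11 by 1.12 on the log2 scale (edgeR adjusted p = 0.00354 to 0.0161). The groups also differ in the length and timing of IFNγ, so withdrawal alone cannot be told apart from these. Parp9 had -1.03 (adjusted p = 0.0546) and Parp12 -1.07 (adjusted p = 0.0627). Of all tested genes 41.6% were called here, 20.8% as lower. The groups of all 6 were apart, as were those of 17.8% of genes in this direction. Without the 24 h library of medium then IFNγ 2 of 6 were called, with no share over all genes given for that fit.

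IFNγ given after TGFβ came with higher levels of all 6 genes than TGFβ then medium. Parp14 had 772, 669, 658 and 509.5 CPM in TGFβ then IFNγ against 211, 161, 17.0 and 8.61 in TGFβ then medium, and rose by 3.07 in log2 units (adjusted p = 0.000153, SE 0.551). At 24 h the 2 libraries differed by 59.1-fold. Dtx3l had 487, 437, 423 and 309.8 CPM and rose by 2.33 (SE 0.405), and Parp9 had 286, 274, 237 and 181 CPM and rose by 2.09 (SE 0.443). In all 3 genes the 24 h library of TGFβ then IFNγ was the lowest of its group and lay below every library of medium then IFNγ.

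Parp10 rose by 1.97 (143, 142, 110.2 and 79.9 CPM), Parp12 by 1.96 (349, 299, 288 and 193) and Parp11 by 1.66 (117, 86.4, 93.9 and 60.3). Adjusted p of the 6 was 0.000107 to 0.00238, all 6 groups were apart, and the median was 2.03. Of all tested genes 36.4% were called in this comparison, 18.8% rose, and 12.5% were apart in this direction, with a median of -0.0077. All 6 calls were also made in each fit without 1 library, without 1 duration, and on these 8 libraries alone (adjusted p = 0.00345 to 0.0221, 20% of genes called as higher). The increase was 1.83 to 3.66-fold at 2 h, 2.25 to 4.16-fold at 6 h, 6.47 to 38.8-fold at 12 h and 4.47 to 59.1-fold at 24 h. Why it differed by length was not tested. Against the medium library of 24 h, the 24 h library of TGFβ then IFNγ differed by -0.56 to 0.75 in log2 units over the 6 genes. The median was -0.12, so not every gene reached the medium level there.

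The effect of IFNγ after TGFβ minus its effect after medium was above 0 for every gene, from 0.91 (Parp11) to 1.62 (Parp14) on the log2 scale. It did not pass in edgeR (adjusted p = 0.292 to 0.397, 5 of 6 at an unadjusted p under 0.05) or DESeq2 (0 of 6), and 0.395% of all genes did, 0.321% as higher. Compared with medium then IFNγ, TGFβ then IFNγ had log2 differences of -0.56 (Parp11) to -0.26 (Parp9), with 0 of 6 called by edgeR (adjusted p = 0.204 to 0.737, 0 of 6 at an unadjusted p under 0.05) and 0 by DESeq2, against 15.8% of all genes, 8.64% higher and 7.19% lower. By length, the 2 and 6 h libraries of the 6 genes lay at 0.889 to 1.06 times those of medium then IFNγ, and the 24 h libraries were 1.64 to 2.38-fold lower. At 24 h Parp10, Parp11 and Parp12 were over 2-fold lower, where 6.05% of genes were. Slopes over the 4 lengths were -0.23 to -0.15 and 0 of 6 passed (adjusted p = 0.337 to 0.758, 0 of 6 at an unadjusted p under 0.05, 0.208% of genes called).

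**Figure D3:**
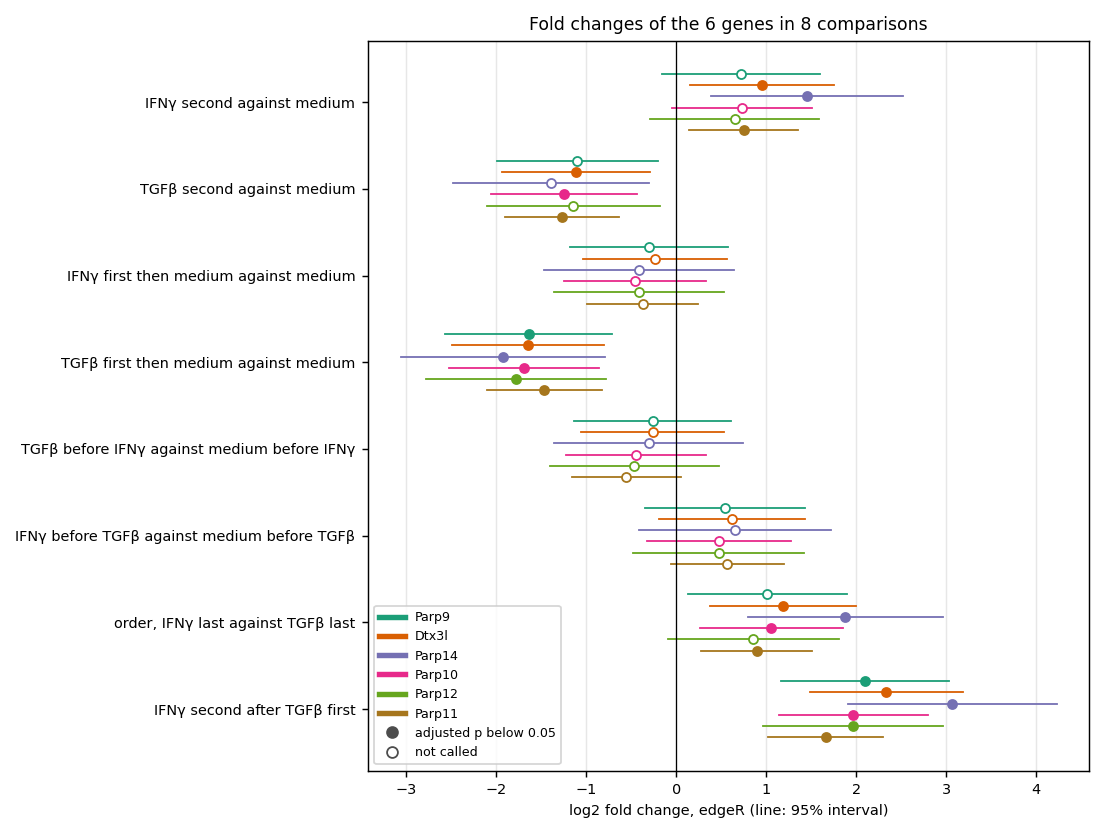
Log2 fold changes of the 6 genes in 8 comparisons, as points with 95% intervals on 18 residual degrees of freedom. Filled points passed an adjusted p of 0.05 in edgeR. All 6 points are filled for TGFβ first then medium (-1.93 to -1.47) and for IFNγ second after TGFβ first (1.66 to 3.07).

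In the reverse order, IFNγ then TGFβ, the mean of each of the 6 genes lay between those of medium then TGFβ and IFNγ then medium. By library, Parp12 at 2 h had 186 CPM, below medium then TGFβ (201) and IFNγ then medium (237). Parp14 had 240.0, 224, 137 and 139 CPM, Dtx3l 210.3, 238, 141 and 153, and Parp9 146, 161, 88.5 and 104. The 12 h libraries differed most from medium then TGFβ, by 2.07 to 3.31-fold, and all 6 genes were over 2-fold higher there, where 3.78% of genes were. Over the 4 lengths IFNγ before TGFβ had log2 differences of 0.47 to 0.65 from medium before TGFβ, with 0 of 6 called in edgeR (adjusted p = 0.485 to 0.746, 0 of 6 at an unadjusted p under 0.05) and 0 in DESeq2, and 0.0937% of all genes called, 0.0268% higher and 0.067% lower.

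With TGFβ after IFNγ all 6 genes had lower levels than in IFNγ then medium at all 4 lengths, by 1.05 to 1.39-fold. In the fit over all sequences this was not called (log2 -0.33 to -0.25, edgeR adjusted p = 0.613 to 0.83, 0 of 6 at an unadjusted p under 0.05, 0 in DESeq2, 7.26% of genes called and 3.62% as higher and 3.64% as lower). On the 8 libraries of this comparison alone all 6 fell (log2 -0.33 to -0.24, adjusted p = 1.64e-05 to 0.00144), as did 12.2% of genes. The effect of TGFβ after IFNγ minus that after medium was 0.85 to 1.07 and passed for none (edgeR adjusted p = 0.683 to 0.758, 1 of 6, Parp11, at an unadjusted p under 0.05, 0 in DESeq2, 0% of genes called).

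Setting both orders against each other, IFNγ last gave higher levels than TGFβ last. Parp14 rose by 1.88, Dtx3l by 1.19, Parp10 by 1.06 and Parp11 by 0.89 (edgeR adjusted p = 0.00727 to 0.0346), where 32.5% of all genes were called and 16.4% were higher. The groups of 4 of the 6 were apart, as for 12.3% of genes. Parp9 had 1.01 (adjusted p = 0.07) and Parp12 0.85 (adjusted p = 0.155). Leaving out the 2 or 12 h library of IFNγ then TGFβ, or the 12 h library of TGFβ then IFNγ, left 1 of 6 called. Shares over all genes are not given for those fits.

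Both cytokines given together for the last 24 h were measured in 1 library, so there is no replicate check. Parp14 had 758 CPM there, Dtx3l 497, Parp12 366, Parp9 270.2, Parp10 144 and Parp11 122. Each lay at 0.851 to 0.980 times its level in the 24 h library of medium then IFNγ and above the medium library of that duration, by 1.37 to 2.5-fold. None of the 6 was over 2-fold from the IFNγ library, as held for most tested genes. Of these 3.24% were over 2-fold lower and 3.21% over 2-fold higher.

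The genes around the chromosome 16 cluster were read out beside it. Within 250 kb the table held 18 other genes, of which 10 were tested. Of all tested genes 43.8% were called with IFNγ as second stimulus and 29% in TGFβ then medium. With IFNγ as second stimulus 6 of the 10 rose and 1 fell, led by the cystatin-family genes Cstdc4 (log2 3.64, from 0.060 to 0.869 CPM) and Csta2 (2.72, from 0.962 to 6.49 CPM), both low, whose near-identical copies make single members uncertain. Slc49a4, a membrane transporter gene, fell by 0.97, and Fam162a, a mitochondrial protein gene, rose by 0.61. In TGFβ then medium 4 rose and 1 fell: Cstdc4 (2.43), Hspbap1 (0.61) and Fam162a (0.37) were among those that rose, and Gm49730, which lies within the span of Parp14 and shares exonic bases with it, fell by 2.02, from 0.681 to 0.162 CPM. Cstdc4 and Gm49730 thus stayed below 1 CPM on average in both comparisons. So the drop after TGFβ was seen in Parp14, Dtx3l, Parp9 and Gm49730, while the median of the 10 neighbours was 0.12.

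**Figure D4:**
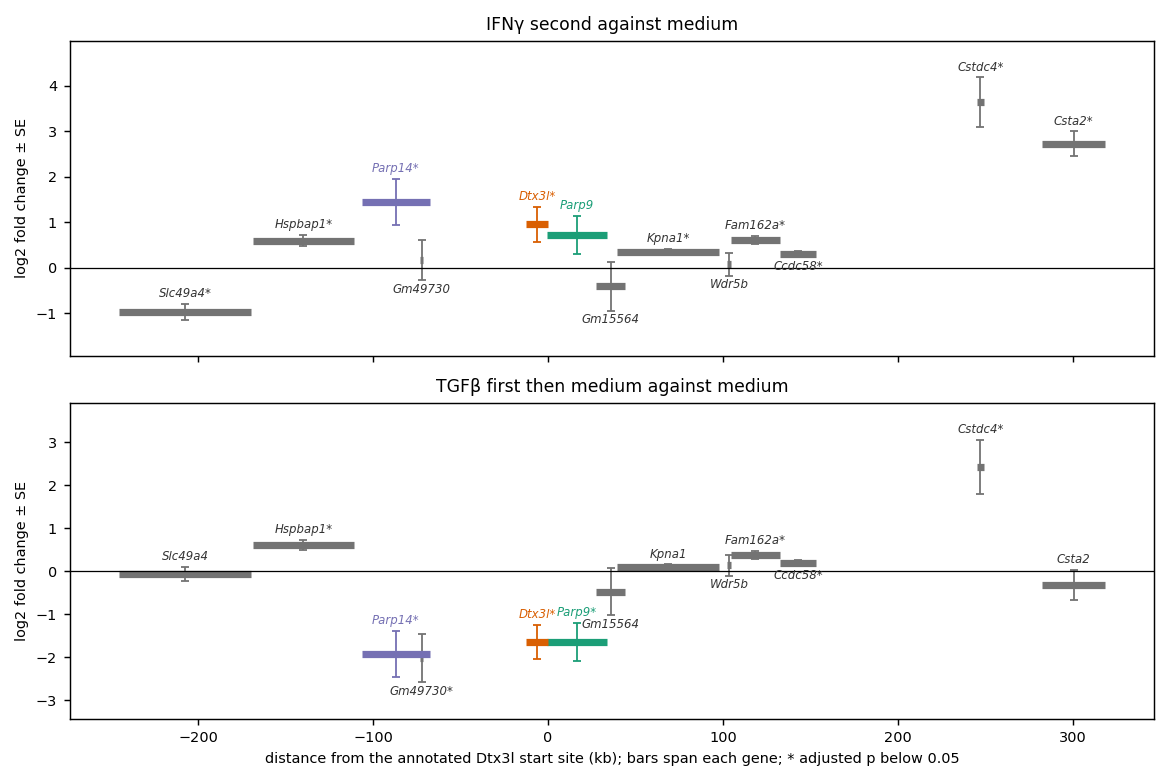
Log2 fold change (± SE) of the tested genes around Dtx3l in 2 comparisons, against distance from the annotated Dtx3l start in kb. Bars span the genes, and asterisks mark an adjusted p below 0.05. In the lower panel Parp14, Dtx3l, Parp9 and Gm49730 lie between -2.02 and -1.64, and the other tested genes between -0.48 (Gm15564) and 2.43 (Cstdc4).

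Other genes of the interferon pathway were read out beside the 6. Of 15 interferon signalling genes, 4 rose and 3 fell with IFNγ as second stimulus, at a median of 0.20. These counts are near the shares over all tested genes, 22.7% higher and 21.2% lower. Irf1, the factor that carries much of the IFNγ response, rose by 3.72, from 38.5 ± 12.6 to 505 ± 28.3 CPM (SD, n = 4), the feedback inhibitor Socs1 by 2.21 and the kinase Jak2 by 0.87, while the receptor chain Ifngr2 fell by 0.50. Irf9, a DNA-binding factor of the type I interferon response, had 0.21 (adjusted p = 0.588) and was not called. In TGFβ then medium 10 of the 15 fell and 0 rose, at a median of -0.51: the 4 with the greatest change were Irf7 (-2.54), Isg15 (-2.16), Usp18 (-2.08) and Stat2 (-1.89). Irf9 had 123, 104, 37.6 and 18.2 CPM and fell by 1.07 (adjusted p = 0.00751). Its low values were at 12 and 24 h, like those of the 6 genes. Of all tested genes 14.5% fell in TGFβ then medium. With IFNγ after TGFβ, 9 of the 15 rose, Irf9 by 1.07, and 1 fell, where 18.8% of all tested genes rose.

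The remaining ADP-ribosyltransferases of the family did not share one direction. Over all tested genes 43.8% were called with IFNγ as second stimulus and 29% in TGFβ then medium. Of 11, all tested, 3 rose with IFNγ as second stimulus (Parp3, which acts in DNA break repair, by 1.01, Tiparp by 0.72 and the vault particle enzyme Parp4 by 0.47) and 3 fell (among them Parp8 by 0.78), with a median of 0.056. In TGFβ then medium 2 rose and 4 fell, led by Parp3 (-0.95), the antiviral zinc finger protein gene Zc3hav1 (-0.57), Parp16 (0.44) and Tiparp (-0.43). The median was -0.076, against -1.67 for the 6 genes in the same comparison. No test of that difference was made.

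The enzymes that remove or read ADP-ribose are given beside the calls over all tested genes, 43.8% with IFNγ as second stimulus and 29% in TGFβ then medium. Of 16 listed, 11 were tested, and with IFNγ as second stimulus 2 rose (Nudt9 by 0.51 and Oard1 by 0.18) and 1 fell (Macrod1, a mono-ADP-ribose hydrolase, by 0.95). After TGFβ then medium 3 rose (Chd1l by 0.30, Adprh by 0.25 and Oard1 by 0.21) and 0 fell. Of the other Deltex ligases 3 of 4 were tested: Dtx3 fell by 0.47 with IFNγ as second stimulus, and in TGFβ then medium Dtx3 fell by 0.40 and Dtx2 by 0.25. Among 11 tested genes of NAD supply and use 4 rose and 4 fell with IFNγ as second stimulus, with Cd38, an NAD-consuming ectoenzyme, falling by 2.83 at a level near 0 (0.562 to 0.0798 CPM) and Nampt, the rate-limiting enzyme of NAD salvage, rising by 0.78 (217 to 371 CPM). TGFβ then medium had 1 of them higher (Nmnat2, 0.39) and 2 lower (Nampt, -0.42, and Nmnat1, -0.24).

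The 6 genes ran closely together over the libraries. Pearson's r of log2 CPM between pairs was 0.934 (Parp9 and Parp11) to 0.995 (Parp9 and Parp12) over 28 libraries, and 0.882 to 0.994 after the mean of each sequence was removed. These are descriptions over libraries that share sequences and durations. By Pearson's r of log2 CPM over the 28 libraries, the non-member most like each of them was the GTPase gene Gbp3 for Parp9 (r = 0.997), Mndal for Parp10 (0.997), Herc6 for Parp11 (0.981), Trim12c for Parp12 (0.995), and Gm4951 for Parp14 (0.992) and Dtx3l (0.994). Among the 100 genes nearest to it, each of the 6 had all 5 of the others, apart from Parp9 with 4.

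Ratios between members were steady for some pairs and not for others. Dtx3l over Parp9 was 1.12 to 2.04 in all 29 libraries, with a median of 1.59, and Parp10 over Parp9 0.442 to 0.592. Parp14 over Parp9 ranged from 0.811 in TGFβ then medium to 2.93 in medium then IFNγ, where all 4 libraries had 2.52 or more and the medium libraries 1.18 to 1.92. Parp11 over Parp9 was 0.282 to 0.508 in medium and up to 1.27 in TGFβ then medium.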

How the data were processed

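RNA of NMM cells was sequenced in 29 libraries. Reads were aligned with HISAT to GRCm38, per the submitters' processing notes, and the authors deposited raw counts per gene. For the counting tool, annotation and strand setting the entry is: not given in the sources used here. Each of the 28229 genes of the table has a symbol, and 0 columns lacked a sample. Genes were filtered with filterByExpr at a minimum count of 10, which left 14935, scaled by TMM and tested with edgeR 4.0.16 (R 4.3.3, limma 3.58.1), by the quasi-likelihood F test with Benjamini-Hochberg adjustment over all genes tested. A change was called at an adjusted p below 0.05. The model had 1 coefficient per sequence and the duration of the first stimulation as a block, with 18 residual degrees of freedom, so the 4 durations stand as replicates. The slope model used 28 libraries and 13973 genes. Levels are CPM and correlations use log2 CPM with a prior count of 2. Totals of 17179530 to 23668015 counts limit the precision of low genes only, and intervals cover the spread between libraries. The scripts were tested on simulated data.

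The members and lists were chosen with earlier results of these data known. All 6 members are named in every comparison. From each list at most the 4 called genes with the largest absolute change were named, plus Irf1 and Irf9 (1 further gene of that rule is not reported here), and for likeness the gene with the highest r. The sum of each marker list gives its level per library. DESeq2 1.42.0, other scaling, other filters, no block, the groups compared alone, and leaving out libraries or durations were the alternatives. No 2 libraries of 1 sequence were alike within sampling noise (chi-square per degree of freedom at least 3.73). Libraries of the same duration share a label value, and the correlation of their deviations over genes was -0.0409 to 0.402. It exceeded 0.1 for all 4 durations in 4 of the 10 comparisons.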

Additional observations from a re-analysis of the deposited data

Results flagged for a closer look

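Parp9 in the 24 h library of medium then IFNγ stood at 307.227 CPM, far from the other 3 libraries of its group at 269.9 to 274 CPM. Parp12 in the 6 h medium library stood at 195.974 CPM, far below the other 3 at 247 to 253 CPM. That library was also the lowest of its group for the other 5 genes, among them Parp11 (47.1 against 79.8 to 89.1 CPM), Parp14 (198 against 288 to 327) and Dtx3l (187 against 259 to 276). Nominally, chance alone sets about 1 in 20 groups apart in this way, a rate that was not measured here. The library with both cytokines given together entered no comparison between groups, and all 6 genes were above the medium libraries there: Parp9 at 270.151, Parp10 at 143.958, Parp11 at 122.225, Parp12 at 366.06, Parp14 at 757.869 and Dtx3l at 497.12 CPM.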

How the results depend on the processing

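No value of a single gene counted here changed its direction under any alternative. These values cover the comparisons between groups and the slopes of TGFβ then medium. The direction of the slopes of other sequences was not tracked. Of 1860 values of single genes under an alternative, 1698 kept their call, 59 passed the threshold where the reported value had not, and 103 no longer did. Of the 94 counts of called genes under another scaling, filter, test, block or choice of groups, 81 stayed within 1.5 times the reported count. The cause of the differences below was not tested. Upper quartile scaling gave 1 call for IFNγ second. No filter gave 6 for TGFβ second. Without the replicate block on duration the calls were 0 for IFNγ second, 1 for TGFβ second, 3 for TGFβ first then medium, 1 for IFNγ last against TGFβ last and 2 for IFNγ withdrawn. Deviations of libraries of the same duration correlated above 0.1 at all 4 durations in 4 comparisons, where the block changed the count of calls by no more than 1.5 times, and at some durations in others. The groups compared alone gave 6 calls for IFNγ second, 0 for TGFβ second, 0 for TGFβ first then medium and 6 for TGFβ second after IFNγ first. For slopes relative to medium no filter and DESeq2 gave 6 each. Leaving out 1 library, the calls ranged from 0 to 3 for IFNγ second, 1 to 4 for TGFβ second, 6 to 6 for TGFβ first then medium, 1 to 4 for the order, 2 to 6 for IFNγ withdrawn, 0 to 6 for the slopes and 0 to 6 for the slopes relative to medium. Leaving out 1 duration, they ranged from 0 to 1, 0 to 3, 2 to 6, 1 to 4 and 2 to 4 for the first 5 of these. IFNγ second after TGFβ first kept 6 calls throughout. Unless given above, no share over all genes stands beside the counts from fits without a library or duration. Whether such changes are particular to the 6 genes was not tested. Depth did not limit these genes, whose lowest count was 104.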
